A study of Drosophila melanogaster with 4 samples.

Results

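The telomere-proximal ends of 3 autosome arms of Drosophila melanogaster were examined for H3K9ac, histone H3 carrying an acetyl group on lysine 9. An end was defined by position alone, as the 2 Mb of arm sequence farthest from the centromere, which is positions 1 to 2000000 on 2L and 3L and positions 25905054 to 27905053 on 3R (FlyBase release 5). Of the 12182 enriched regions (clusters) in the authors' list for the whole series, 621 lay entirely within these ends, with 237 on 2L, 203 on 3L and 181 on 3R. The same positions held 474 of the 9104 clusters of replicate 1 and 541 of the 10049 clusters of replicate 2. The material was nuclei of heads of wild-type Oregon-R flies, sieved from mixed adults of population cages, so each list describes a mixture of all head cell types. Chromatin immunoprecipitation (ChIP) with an H3K9ac antibody was sequenced in 2 replicates, each with its own input library as background. All samples share strain, stage and genotype, so the comparisons are between regions of the genome and not between conditions. Nothing in the labels states that the replicates are from different fly populations, so their spread may be technical, and the read depth behind the lists is unknown.

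H3K9ac is placed by histone acetyltransferases such as Gcn5 and removed by deacetylases, and it is found mainly around the start sites of active genes. Fly telomeres carry arrays of the retrotransposons HeT-A, TART and TAHRE in place of the repeats that telomerase makes in most animals. Next to these arrays lie subtelomeric repeats known for silencing reporter genes inserted in or near them, which is called telomeric position effect. The first or last base of an arm in the assembly need not be the physical end of the chromosome, so distances below run from the end of the arm sequence. In the RefSeq gene table of release 6, the outermost protein-coding genes of 2L are, from the tip inward, l(2)gl, a tumour suppressor and cell polarity gene, Ir21a, an ionotropic receptor used in sensing cool temperatures, Cda5, of the chitin deacetylase family, dbr and galectin, which encodes a galactoside-binding lectin. On 3L they are mthl8, of the methuselah-like receptor family, CG43149, Lsp1gamma, which encodes a larval serum protein, CG13405 and CG12483. On 3R they are Map205, which encodes a microtubule-associated protein, mod, which encodes a nucleolar DNA- and RNA-binding protein, krz, a non-visual arrestin, Pos and heph, a polypyrimidine tract-binding protein. These names give gene order only. That table is of another release than the clusters, so no cluster was assigned to a gene.

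The 3 arms differed in how close to the end of the sequence the first H3K9ac cluster lay. On 3R the first cluster lay 10.2 kb from the end in replicate 1 and 10.4 kb in replicate 2. On 3L it lay 79.4 kb from the end in replicate 1 and 121.5 kb in replicate 2. On 2L it lay 17.4 kb from the end in replicate 1 and 71.4 kb in replicate 2. The outermost cluster was thus the same region in both replicates on 3R alone.

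The difference between replicates on 2L and 3L came from low-scoring clusters found in replicate 1 alone. The score is the authors' value per cluster, of a scale not given in the sources used here. On 2L these were 17383 to 19166, with a score of 0.216, and 20034 to 21995, with 0.447. On 3L it was 79351 to 80978, with 0.402. The outermost cluster found in both replicates had a higher score than these on 2L and 3L. On 2L it was 71382 to 76044 in replicate 1, 4663 bp long, with scores of 1.16 in replicate 1 and 1.18 in replicate 2. On 3L it was 121625 to 126894, 5270 bp long, with 0.754 and 0.905. On 3R it was 27890510 to 27894831, 4322 bp long, with 0.995 and 0.827. These shared clusters began 10.2 kb from the end on 3R, 71.4 kb on 2L and 121.6 kb on 3L. The lists hold called clusters alone, so sequence without a cluster is not shown to lack the mark.

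The whole-series list began 17.4 kb from the end on 2L, 68.6 kb on 3L and 10.2 kb on 3R. Its 3 outermost clusters on 3L, with starts at 68640, 70054 and 72204 and scores between 0.319 and 0.427, overlapped no cluster of either replicate. On 2L its 2 outermost clusters, of scores 0.083 and 0.212, were those found in replicate 1, and the next, 71336 to 76180 with 1.14, was in both. On 3R its second cluster, 27885928 to 27887502 with 0.335, was in neither replicate, and the clusters on either side of it were in both. The inner of these, 27875074 to 27879908, scored 1.13 there, and 1.19 and 1.17 in replicates 1 and 2.

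**Figure D1:**
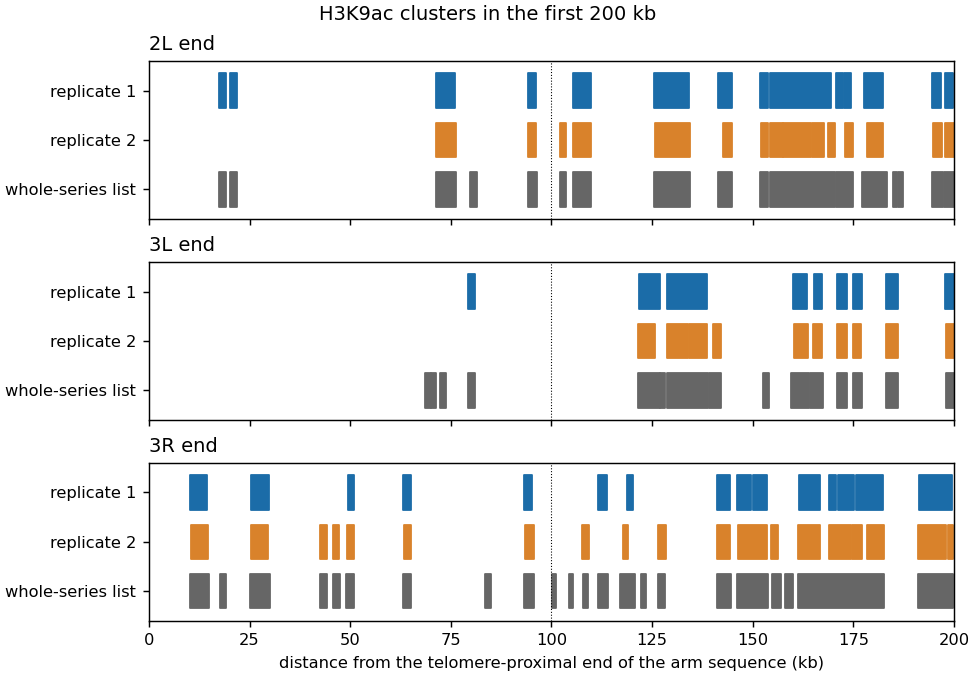
Clusters in the first 200 kb of each end, drawn to scale against the distance from the end of the arm sequence in kb, with 1 row per list and a dotted line at 100 kb. The first cluster shared by the replicates stands at 10.2 kb on 3R, 71.4 kb on 2L and 121.6 kb on 3L.

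Clusters covered little of the outermost 100 kb, and cover rose in the adjacent window on every arm. Cover is the share of bases inside a cluster, taken here in 20 fixed windows of 100 kb per end. On 2L the first window had 10.5% in replicate 1 and 6.80% in replicate 2, and the second window had 46.8% and 44.0%. On 3L the first window had 1.63% and 0%, against 30.9% and 31.7%. On 3R it had 14.2% and 17.3%, against 39.6% and 42.8%. In each arm the gap between the first and the second window was far wider than the gap between the replicates in either.

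The first window held 4 clusters in replicate 1 and 2 in replicate 2 on 2L, 1 and 0 on 3L, and 5 and 7 on 3R. By the mean of the replicates it had the lowest cover of the 20 windows on 3L, the second lowest on 2L and the fifth lowest on 3R. Over the whole arm, 28 of 230 windows on 2L, 12 of 245 on 3L and 59 of 279 on 3R had less mean cover than the first window. On 3L, 9 of the 12 were among the 20 windows nearest the centromere, so 3 lay elsewhere on the arm. On 2L, 11 of the 28 were among the 20 windows nearest the centromere, and on 3R 3 of the 59.

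Beyond the first window the ends were uneven, and the profile differed in shape between the arms. On 2L the cover of the windows was 3.58% at the lowest, 35.1% at the median and 49.5% at the highest in replicate 1, and 3.64%, 40.9% and 57.7% in replicate 2. The lowest mean, 3.61% ± 0.04 (SD, n = 2), was that of positions 600001 to 700000, and the highest, 53.6% ± 5.78, that of positions 1000001 to 1100000. A mean cover of at least 40% was reached by 9 of the 20 windows of the 2L end (45%). In the rest of 2L it was reached by 16.7% of 210 windows. Of the 9 in the end, 7 lay more than 800 kb from the end of the arm.

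On 3L the windows ran from 1.63% through a median of 25.1% to 52.5% in replicate 1, and from 0% through 30.0% to 55.6% in replicate 2. The highest mean cover was 54.1% ± 2.20 at positions 900001 to 1000000. A mean of 40% was reached by 3 of the 20 windows (15%), near the 12% of the 225 windows of the rest of 3L. The share was 15% in replicate 1 and 25% in replicate 2, against 11.6% and 13.8% in the rest. On 3R the windows ran from 4.52% through 28.5% to 62.4% in replicate 1, and from 6.58% through 32.8% to 65.1% in replicate 2. Here the highest and the lowest window were neighbours. Positions 27405054 to 27505053 had a mean cover of 63.7% ± 1.95, positions 27305054 to 27405053 had 5.55% ± 1.46, and positions 27205054 to 27305053 had 54.9% ± 0.58 (SD, n = 2). All 5 windows of the 3R end with a mean of at least 40% lay within 800 kb of its tip, opposite to 2L. They were 25% of the windows of that end, near the 20.8% of the 259 windows of the rest of 3R. The share was 15% in replicate 1 and 35% in replicate 2, against 20.1% and 23.9% in the rest. The position held less strictly in replicate 2, where 7 windows reached 40%. Among them were 26905054 to 27005053 (41.6%) and 26305054 to 26405053 (40.3%), both beyond 800 kb. The 3R end also held 4 windows with a mean cover under 10% (20%, against 9.27% in the rest of 3R). This excess was not kept in every list. In replicate 1 there were 4 such windows (20%, against 12.4%) and in replicate 2 there were 2 (10%, against 9.27%). The whole-series list had 1 (5%, against 5.79%). By the mean of the replicates, the 2L end held 2 (10%, against 14.8% in the rest of 2L). The 3L end held 1 (5%, against 16% in the rest of 3L).

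Both replicates gave nearly the same profile on 3L and 3R and a looser one on 2L. Across the 20 windows of an end, Spearman's rho between the replicates was 0.96 on 3L, 0.98 on 3R and 0.79 on 2L, which describes windows that share libraries and is no test. In the rest of each arm rho was 0.95 on 2L, 0.96 on 3L and 0.95 on 3R. The widest gap between the replicates on 2L was at positions 1500001 to 1600000, with 29.2% covered in replicate 1 and 49.5% in replicate 2. The SD over the windows of an end, as the mean of the replicates, was 17.2 percentage points on 3R, 13.7 on 2L and 12.8 on 3L, against 14.7, 14.2 and 15.04 over the windows of the rest of these arms.

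**Figure D2:**
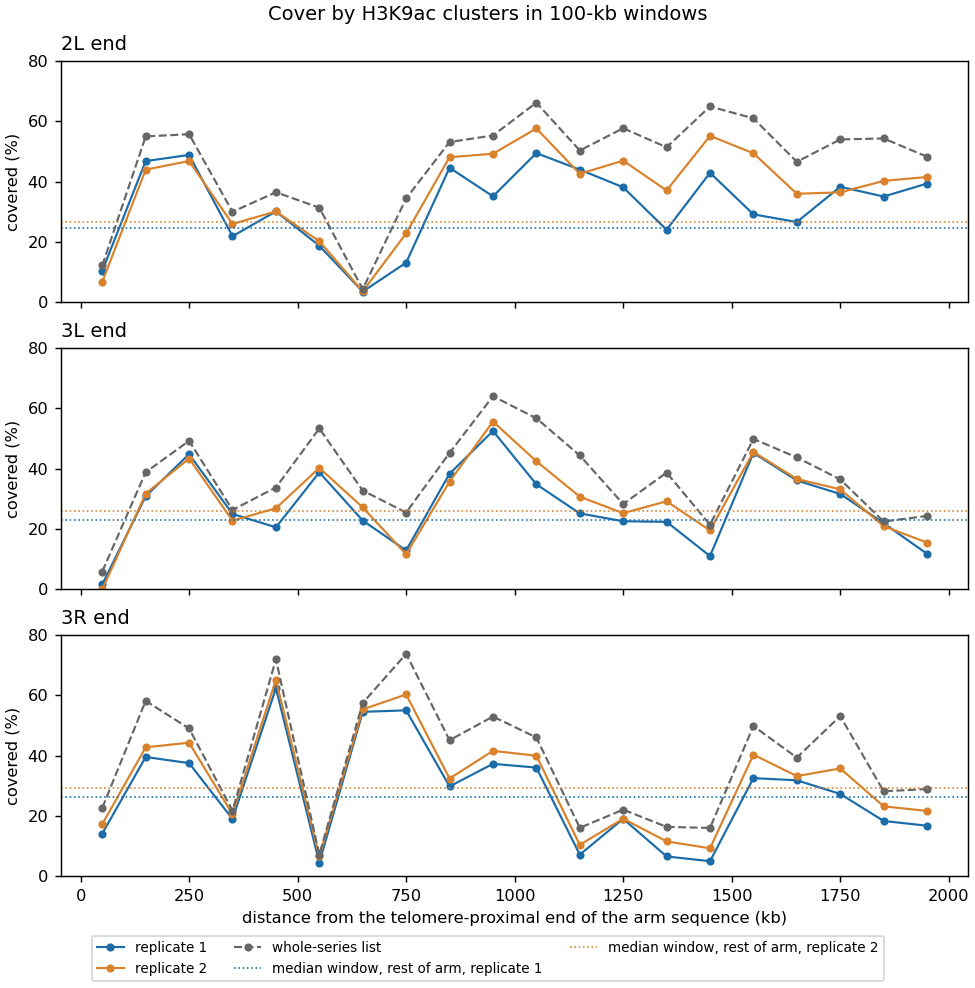
Cover (% of bases) in each 100-kb window against the distance from the end of the arm sequence in kb, for both replicates (solid) and the whole-series list (dashed), with dotted lines at the median window of the rest of the arm in each replicate. The first window is low on each arm (1.63% and 0% on 3L), most windows of at least 40% on 2L lie beyond 800 kb, and on 3R a window of 63.7% mean cover stands beside 1 of 5.55%.

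Cover was split differently over the outer and the inner 1 Mb of the ends. On 2L the outer 1 Mb had 27.4% and 29.8% in replicates 1 and 2, and the inner 1 Mb 36.7% and 44.3%. On 3R the order was opposite, with 35.4% and 38.6% in the outer and 20.1% and 24.4% in the inner 1 Mb. On 3L the outer 1 Mb had 28.8% and 29.5% and the inner 1 Mb 26.3% and 29.9%, so that the replicate ranges overlapped. On 2L and 3R they did not. Median scores did not follow cover on 2L, where they were 0.738 and 0.669 in the outer and 0.689 and 0.624 in the inner 1 Mb. The number of clusters did, with 72 and 87 in the outer and 96 and 113 in the inner 1 Mb.

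Against the rest of the same arm, the ends of 2L and 3L had more H3K9ac cover, and on 3R the difference was smaller than the SD between the replicates. On 2L the end was covered to 34.6% ± 3.55 and the rest to 25.7% ± 1.76 (SD, n = 2), a difference of 7.58 percentage points in replicate 1 and 10.1 in replicate 2. On 3L the values were 28.6% ± 1.53 and 24.8% ± 1.39, a difference of 3.75 and 3.95. On 3R they were 29.6% ± 2.70 and 28.4% ± 1.84, a difference of 0.668 and 1.88. The mean differences within a library, 8.84 ± 1.79 on 2L, 3.85 ± 0.141 on 3L and 1.27 ± 0.856 on 3R (SD, n = 2), depended on where the regions were drawn. With ends of 1 Mb they were 2.19 on 2L and 8.87 on 3R, and without the 2 Mb nearest the centromere the 3L difference was 2.22. A difference was taken as larger than the spread where it had 1 sign in both replicates and its mean exceeded the SD of the end and that of the rest. These SDs include the larger number of clusters in replicate 2, which the difference within a library does not. No p was computed, since with 2 libraries a two-sided permutation of signs cannot give less than 0.5, and clusters or windows of 1 library are not replicates.

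The 2-Mb ends of 2L and 3L also held more clusters per Mb than the rest. On 2L the end held 92.0 ± 11.3 clusters per Mb and the rest 78.0 ± 6.19. On 3L it held 85.0 ± 4.95 against 73.5 ± 4.92. On 3R the end held fewer, 76.8 ± 7.42 against 82.0 ± 7.02. That difference was -5.51 and -4.93 in the replicates, which is smaller than the SDs of end and rest but close between the libraries (-5.22 ± 0.41, SD, n = 2). The whole-series list gave the same directions, with 118.5 against 100.9 per Mb on 2L, 101.5 against 95.5 on 3L and 90.5 against 102.4 on 3R. With ends of 1 Mb the mean difference fell from 14.0 to 0.337 clusters per Mb on 2L and turned from -5.22 to 0.417 on 3R. Without the 2 Mb nearest the centromere it was 9.23 on 2L and 7.04 on 3L. On 2L that is less than the SD of the end, 11.3, so by the rule above it no longer exceeded the spread. Within each library the 2L end still held more, with 84 against 78.1 in replicate 1 and 100 against 87.4 in replicate 2.

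The median cluster of the 3L end was longer and higher in score than that of the rest of 3L. Their median length was 2710 bp in replicate 1 and 2759 bp in replicate 2, against 2517 and 2456 bp. Their median score was 0.761 and 0.740, against 0.661 and 0.640, so the difference was 0.10 in each replicate. In the whole-series list these medians were 2725 against 2429 bp and 0.534 against 0.443. The upper quartile of the scores was 1.11 and 1.03 in the 3L end and 0.96 and 0.85 in the rest, so the upper part of the distribution was higher too. The size of both differences depended on the setting. In length it fell from 248 to 119.5 bp after clusters less than 500 bp apart were merged and to 54.5 bp with the upper 50% by score alone. In score it fell from 0.100 to 0.0513 with an end of 3 Mb.

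On the other arms the difference in median length was within the spread of the replicates for the 2-Mb ends as deposited. In the 2L end the median length was 2582 and 2395 bp, against 2493 and 2401 bp in the rest, and the sign of the difference turned between the replicates. On 3R it was 2682 and 2473 bp against 2595 and 2488 bp, with the sign turning likewise, and the whole-series list gave 2733 against 2484 bp. Other settings gave longer clusters in these ends. The mean difference on 3R rose from 36.3 bp to 422 bp with an end of 1 Mb, 259.5 bp with 3 Mb and 911 bp in the upper 50% by score. On 2L it rose from 41.5 bp to 257.75 bp after merging and 414 bp in the upper 50% by score. Scores in the 2L end had medians of 0.697 and 0.642 against 0.640 and 0.619, and the mean difference, 0.04, only just exceeded the SD of the end, 0.039. It was 0.0718 with an end of 1 Mb and 0.0216 in the whole-series list. The 3R medians of 0.688 and 0.652 against 0.669 and 0.644 differed by less than the SD. With ends of 1 and 3 Mb that difference was 0.0438 and 0.0505. Clusters of at least 10 kb made up 6.29% and 6.10% of those in the 3R end, against 3.51% and 3.24% in the rest of 3R, from 9 and 10 clusters. In the 3L end they were 1.84% and 1.69%, from 3 clusters in each replicate, against 3.10% and 2.82%. In the 2L end they were 2.98% and 3.5%, against 2.78% and 3.12%. Length and score went together within the ends, with a Spearman's rho across clusters between 0.65 and 0.78 over the arms and replicates, which is a description, since clusters of 1 library share their source.

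**Figure D3:**
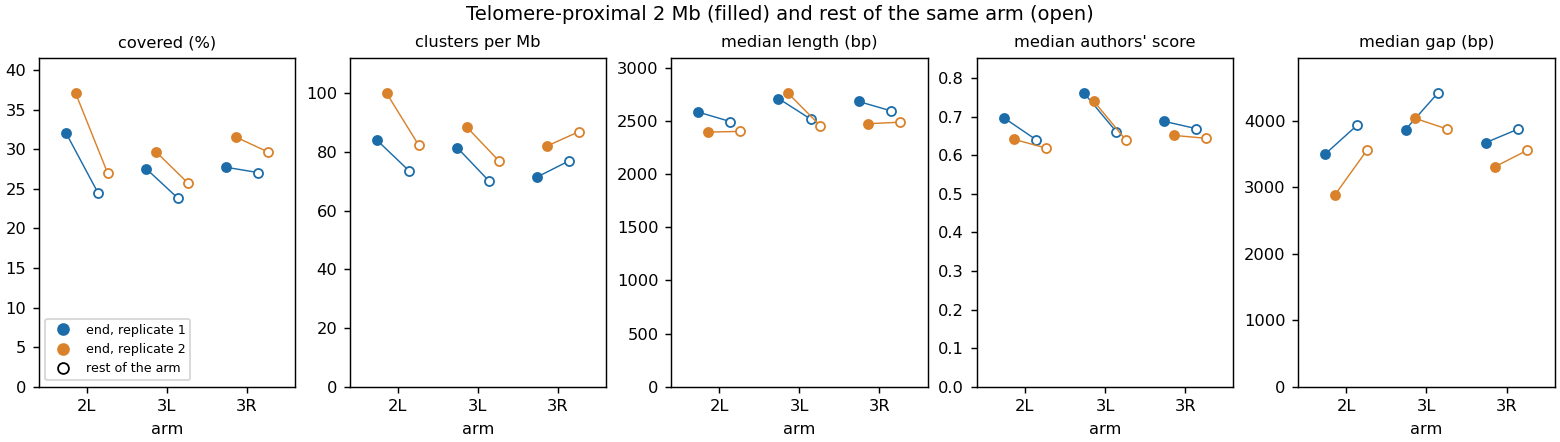
The covered share (%), number of clusters per Mb, median length (bp), median authors' score and median gap (bp) in the telomere-proximal 2 Mb (filled) and in the rest of the same arm (open), with 1 line per replicate and arm. Covered share is higher in the end on 2L (32.0% and 37.1% against 24.5% and 27.0%) and on 3L (27.5% and 29.7% against 23.8% and 25.7%), and close on 3R.

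In the 2-Mb end of 2L, clusters lay closer together than in the rest of 2L. The median gap from 1 cluster to the next was 3503 bp in replicate 1 and 2888 bp in replicate 2, against 3938 and 3560 bp. With an end of 1 Mb the median gaps of the end were 3571 and 3444 bp in replicates 1 and 2. The mean difference then shrank from -553.5 to -183 bp, so its size depended on the length chosen. On 3L the gaps were 3868 and 4036 bp against 4413 and 3875 bp, and the sign of the difference turned between the replicates. On 3R they were 3671 and 3311 bp against 3873 and 3557 bp, a difference of -224 ± 31.1 bp within a library (SD, n = 2) that was smaller than the SD of the end, 254 bp. In the whole-series list the gap was wider in the end on both arms, with 3342 against 2988 bp on 3L and 3145 against 2769 bp on 3R.

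The upper tail of the gaps set 2L and 3L apart from 3R. On 2L, gaps of at least 20 kb filled 28.8% and 15.7% of the end in replicates 1 and 2, and 44.3% and 38.1% of the rest. On 3L they took up 30.5% and 22.2%, against 46.0% and 42.3%. On 3R they took up 42.7% and 30.4%, against 41.5% and 33.4%. The stretch between the tip and the first cluster is no gap between clusters, so these shares leave it out. In replicate 1 that stretch measured 17.4 kb on 2L, 79.4 kb on 3L and 10.2 kb on 3R. In replicate 2 it measured 71.4, 121.5 and 10.4 kb. Without the 2 Mb nearest the centromere, the rest had 41.0% and 34.1% on 2L and 42.6% and 38.8% on 3L.

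Long stretches between clusters were empty in both replicates. The longest in the 3R end was 27289407 to 27377098, of 87.7 kb, between 528.0 and 615.6 kb from the end. It was part of a stretch of 107.6 kb in replicate 1 and of 87.8 kb in replicate 2, and the whole-series list also placed no cluster in it. The next on 3R, 26715657 to 26798925, measured 83.3 kb. The whole-series list placed 4 clusters within its limits and left 63.0 kb of it, 26715657 to 26778613, without a cluster. On 2L the longest was 604116 to 697327, of 93.2 kb, and on 3L 362953 to 439576, of 76.6 kb, and in both the limits of the replicates were less than 1 kb apart. The next on 3L measured 54.8 and 51.9 kb. The whole-series list reached into the limits of the longest stretches of 2L and 3L with 2 clusters each. It reached into those of 54.8 and 51.9 kb with 1 and 2 clusters. In that list the longest stretches were 92.9 kb on 2L, 74.8 kb on 3L and 87.8 kb on 3R. In the rest of the same arms the longest gap of replicate 1 was 214.7 kb on 2L, 372.9 kb on 3L and 330.5 kb on 3R. In replicate 2 it was 215.0, 461.1 and 386.3 kb. These are maxima over 21.0, 22.5 and 25.9 Mb, against 2 Mb for an end, so their size is not comparable. Without the 2 Mb nearest the centromere the longest gap of replicate 1 was 214.0, 162.1 and 330.5 kb. The second longest stretch on 2L, 21996 to 71381 with 49.4 kb, was the one before the outermost shared cluster. In replicate 2 the 2L sequence from the tip to 71.4 kb was empty, and on 3L that to 121.5 kb, which is longer than any stretch between clusters of that end.

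**Figure D4:**
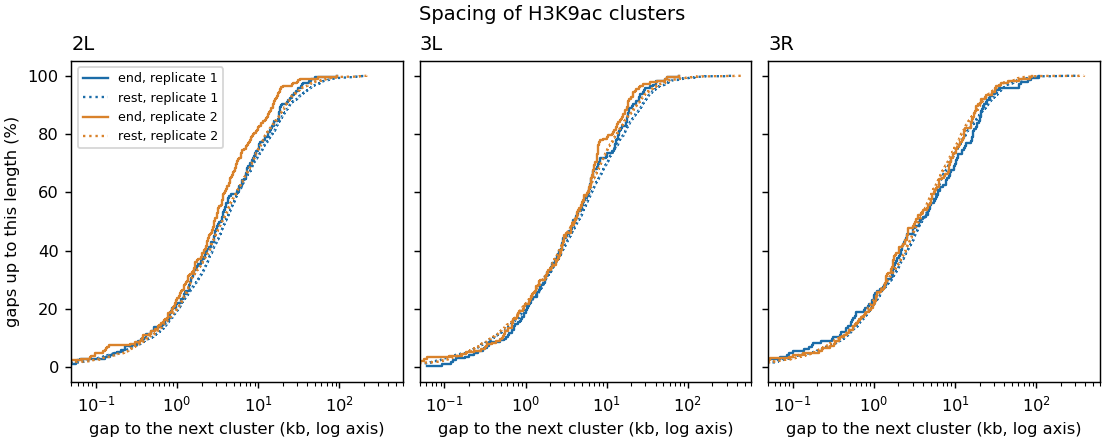
Cumulative share of gaps between neighbouring clusters (%) up to a given length in kb (log axis) in the end (solid) and the rest of the arm (dotted) for both replicates. The curves of the 2L end lie to the left of those of the rest (medians of 3503 and 2888 bp against 3938 and 3560 bp), and those of 3L and 3R cross or lie close.

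Set beside the other complete 2-Mb stretches of the same arm, counted from the telomere-proximal end, the 2L end ranked near the top. Its cover of 32.0% in replicate 1 was the second highest of 11 stretches, after 32.5% at positions 18000001 to 20000000, and its cover of 37.1% in replicate 2 was the highest, before 35.5% at those positions. In the whole-series list it was also the highest, with 46.2%. The 3L end ranked 3 of 12 stretches in replicate 1, with 27.5%, and 2 of 12 in replicate 2, with 29.7%, level to 3 digits with positions 8000001 to 10000000. The stretch next to it, 2000001 to 4000000, had the highest cover of 3L, with 32.2% and 33.6%. On 3R the end ranked 6 of 13 in all 3 lists. The highest cover of 3R lay at 21905054 to 23905053, with 32.9% and 36.9%. High cover was thus found elsewhere on each arm, and it was not particular to the ends.

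**Figure D5:**
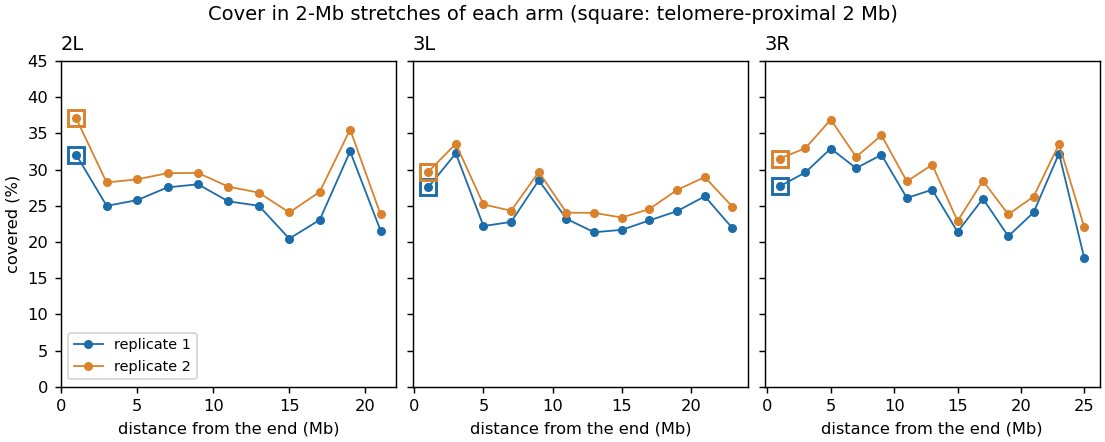
Cover (%) in consecutive 2-Mb stretches against the distance of their centre from the telomere-proximal end in Mb, for both replicates, with squares on the ends. The 2L end is the second highest of 11 stretches in replicate 1 and the highest in replicate 2, the 3L end ranks 3 and 2 of 12, and the 3R end 6 of 13 in both.

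Between the 2-Mb ends, that of 2L had the most cover, and that of 3L the highest median scores. Neither order held in the outer 1 Mb, where 3R had the most cover, with 35.4% and 38.6%, and the median scores of 2L (0.738 and 0.669) and 3L (0.733 and 0.723) overlapped. The cover of the 2L end exceeded that of the 3L end by 4.51 percentage points in replicate 1 and 7.37 in replicate 2, and that of the 3R end by 4.33 and 5.53, and the replicate ranges did not overlap in either pair. The ends of 3L and 3R differed by -0.180 and -1.84, with overlapping ranges. Median scores of the 2L end minus those of the 3L end were -0.0640 and -0.0987, and those of the 3L end exceeded those of the 3R end by 0.0727 and 0.0887, with no overlap of the ranges. The scores of the 2L and 3R ends overlapped. Median lengths of 3L lay above those of 3R by 28 and 286 bp, and the 2L lengths differed from them by -128 and -364.5 bp, again without overlap. In the whole-series list the 3L minus 3R length turned to -8 bp. Median gaps of the 3L end were wider than those of 3R by 197.5 and 724.5 bp, and the 2L gaps differed from those of 3L by -365 and -1147.5 bp, without overlap. The number per Mb was higher on 2L than on 3R by 12.5 and 18.0, with no overlap. For the other pairs of arms the ranges overlapped, but the differences within a library had 1 sign. There 2L exceeded 3L by 2.5 and 11.5, and 3L exceeded 3R by 10 and 6.5. These 15 comparisons, of 5 measures in 3 pairs, rest on 2 libraries and carry no test.

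The 3 highest-scoring whole-series clusters of each end were found at nearly the same place in both replicates. Their scores were close between the replicates in some and less so in others, such as 1.63 and 1.95 in 1 cluster of 3R. They were picked by score from the whole-series list, so their presence in both replicates is no independent check. On 2L the highest score was that of 868510 to 873156, 4647 bp long, with 2.40, 2.43 and 2.41 in the whole-series, replicate 1 and replicate 2 lists. The next on 2L were a close pair, 419008 to 421958 with 1.81, 1.91 and 1.83, and 412398 to 416778 with 1.602, 1.69 and 1.55. The latter was the first cluster of replicate 2 after an empty stretch from 358664 to 412419. On 3L the highest was 748550 to 755250, 6701 bp long, with 1.95, 1.95 and 2.02, in a 100-kb window with a mean cover of only 12.3% ± 0.90 (SD, n = 2). The others on 3L were 1616594 to 1619988, with 1.93, 2.06 and 1.79, and 1666936 to 1669566, with 1.89, 2.03 and 1.81. On 3R they were 27042412 to 27052242, 9831 bp long, with 2.09, 2.17 and 2.04, then 25990148 to 25993054 with 2.01, 1.96 and 2.10, and 25957976 to 25960896 with 1.78, 1.63 and 1.95. All 9 were single clusters in each replicate, and each replicate covered between 91.1% and 99.7% of each of them. None lay within 400 kb of an end.

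The longest clusters of the ends were broken up to different degrees. On 2L the longest, 922178 to 955862 with 33.7 kb, was 2 clusters in replicate 1 and 1 in replicate 2, and 1884168 to 1909866, with 25.7 kb, was a single cluster in both. The next on 2L, 1832682 to 1854754 with 22.1 kb, was 2 and 1. On 3L the longest, 931980 to 961074 with 29.1 kb, was 5 clusters in replicate 1 and 4 in replicate 2, of at most 8296 and 11842 bp. The next on 3L, 1002050 to 1023700 with 21.7 kb, was 4 and 5, and 552464 to 569858 with 17.4 kb was 2 and 3. On 3R the longest, 27243378 to 27277712 with 34.3 kb, was 2 and 1. The next on 3R were 27722528 to 27743780, with 21.3 kb and 4 clusters in each replicate, and 27455944 to 27477112, with 21.2 kb and 2 and 3. These whole-series clusters were covered to between 75.5% and 98.9% by replicate 1 and between 76.5% and 99.95% by replicate 2.

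Agreement between the replicates in the ends was close to that in the rest of the arms. Of the 474 end clusters of replicate 1, 440 (92.8%, exact 95% interval 90.1 to 94.98) had at least 1 bp covered by a cluster of replicate 2, against 91.8% (91.0 to 92.5) in the rest of these arms and 91.1% over all sequences. Of the 541 end clusters of replicate 2, 427 (78.9%, 75.2 to 82.3) were covered by replicate 1, against 81.5% (80.5 to 82.5) in the rest and 81.9% over all sequences. These intervals hold for independent clusters, which those of 1 library are not, and show counting error alone. In replicate 2 the share was 75.5% on 2L, 85.9% on 3L and 75.6% on 3R, against 80.8%, 82.5% and 81.3% in the rest of these arms.

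Of the 621 whole-series clusters of the ends, 371 (59.7%) overlapped both replicates, against 58.9% in the rest of the arms and 59.4% over all sequences. A further 29 (4.67%) overlapped replicate 1 only, 101 (16.3%) replicate 2 only and 120 (19.3%) neither. In the rest of the arms these shares were 5.37%, 13.7% and 21.9%. How that list was joined from the replicates is not given in the sources, so the overlap is no independent check. On 3L, 133 of 203 (65.5%) were in both replicates, against 58.9% in the rest of 3L. On 2L it was 135 of 237 (57.0%) against 57.6%, and on 3R 103 of 181 (56.9%) against 60.1%. Clusters found in neither replicate were short and low in score, with medians of 1321 bp and 0.363. Those found in both had medians of 3767 bp and 0.718. The rest of the arms was alike, with 1308 bp and 0.344 for neither and 3504 bp and 0.643 for both.

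At the 2-Mb limit, the last whole-series clusters inside were 1984904 to 1989674 on 2L with a score of 0.833, 1998464 to 1999522 on 3L with 0.371 and 25907138 to 25908950 on 3R with 0.352. The first outside were 2000746 to 2006974 with 0.785, 2003272 to 2004464 with 0.273 and 25902000 to 25904112 with 0.408. No cluster of that list lay across the limit.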

How the data were processed

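H3K9ac ChIP-seq clusters were taken as deposited, 1 list per ChIP replicate and 1 for the whole series. Reads were aligned with Bowtie 0.12.7, per the submitters' processing notes, and positions are in base pairs of FlyBase release 5, per the file headers. The authors deposited 1 score per cluster. Its scale, the cluster caller and thresholds, the depth and the joining of the replicates are not given in these sources. No list of the inputs alone was used here.

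The lists were not filtered. The 1 region named as depleted was left out of the whole-series list. Cover counts bases in clusters, cut at window edges. Numbers, lengths, scores and gaps use clusters entirely inside a region. Means over replicates carry the SD (n = 2). The functions were checked base by base on simulated data. Computations used Python 3.11.15, numpy 2.4.6, scipy 1.17.1, pandas 2.3.3 and matplotlib 3.10.9. The regions and measures were chosen with earlier results of these data known. Named clusters were, per end, the 3 outermost, the 3 highest-scoring and the 3 longest of the whole-series list. The longest stretches without a cluster and the windows of lowest and highest mean cover were also named, and other windows and stretches were named after their values were seen. Alternatives were the whole-series list, each replicate alone, ends of 1 and 3 Mb, a rest without its centromere-proximal 2 Mb, the upper 50% by score, merging below 500 bp and other windows. No gene was assigned and no sequence is shown, since no release 5 genome or annotation was used here.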

Additional observations from a re-analysis of the deposited data

How the results depend on the processing

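The direction of the difference in cover between end and rest was kept in all 27 combinations of arm and alternative. Ends of 1 Mb in place of 2 Mb moved it from 8.84 to 2.19 percentage points on 2L, from 3.85 to 4.26 on 3L and from 1.27 to 8.87 on 3R, so its size on 2L and 3R depends on the length chosen. With ends of 3 Mb it was 6.33 on 3L. The whole-series list gave 11.04 on 2L and 3.66 on 3L. Leaving out the 2 Mb nearest the centromere gave 2.22 on 3L. The upper 50% of each list by score gave 4.38 on 3L and 2.58 on 3R. Without its first 100 kb, an alternative chosen after seeing the data, the 3L end gave 5.32. The other alternatives moved these values by less than the SD.

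The first window minus the median of the others was -29.7 percentage points on 2L, -27.1 on 3L and -15.8 on 3R. It moved with windows shifted by 50 kb, to -16.1 percentage points on 2L, -12.4 on 3L and -13.2 on 3R, and with windows of 200 kb, to -11.1, -15.3 and -1.91. The first cluster of 3L lay 68.6 kb from the end in the whole-series list, against a mean of 100.4 kb in the replicates. On 3R the number per Mb turned to 0.417 above the rest with an end of 1 Mb, and the median gap turned to 376 bp above it in the whole-series list and 497.8 bp after merging. The causes were not tested. With at least 50% of a cluster covered, the end shares with a partner were 91.4% and 76.5%. The comparison of gene starts was not run, for want of a release 5 annotation. End and rest share a library, so the differences within each replicate are the paired values, and no test was made on 2 of them. The unknown depth limits what the larger number of clusters in replicate 2 can show.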
